A study of Mus musculus with 6 samples.

Results

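The Day 7 library, donor lung fibroblasts recovered 7 days after transfer into injured lungs, was compared gene by gene with the Untreated library of the same donor line. All genes with a mean of at least 10 CPM (SAGE tags per 1000000 assigned tags) over both libraries were taken as measured, which gave 4017 of 24408 genes in the table. Ppcs, at a mean of 9.99 CPM, lay just outside this limit and Thap2, at 10.01 CPM, just inside.

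Both groups came from Col-GFP mice on the C57BL/6 background, which carry a green reporter named for collagen. The Untreated cells were taken from mice that had received no drug, by dissociating the lung and removing cells with lineage markers. For Day 7, such fibroblasts were placed in the airways of wild type hosts 7 days after these had been given bleomycin, a drug that scars the lung, and the GFP-positive cells were then sorted from the host lungs. Transfer, the injured host, elapsed time and the sort on a collagen reporter therefore differ together between the groups and cannot be told apart. Each group is 1 library, and the number of animals behind it is not given in the sources used here. Day 2 and Day 4 libraries of the same transfer, and Acta2 low and Acta2 high libraries of donor cells that carried both Col-GFP and an Acta2-mKO1 reporter, are used only to place the Day 7 values. With 1 library a group no difference has a replicate check and no test between the conditions is given.

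Lung fibroblasts build the collagen and elastic scaffold of the alveolar wall, store lipid and retinoid, and feed the neighbouring epithelium. After injury they can turn into matrix-secreting, contractile myofibroblasts, a state led by TGF-beta and tension and marked by alpha smooth muscle actin, fibrillar collagens, periostin and Cthrc1. Such secretion loads the endoplasmic reticulum (ER), whose folding enzymes are in part governed by the unfolded protein response, a stress pathway that acts through promoter sequences called ER stress response elements (ERSE).

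At Day 7, 4 of 47 measured genes of the ER list were at least 4-fold lower, and Spp1, the osteopontin gene, had the greatest rise of all measured genes. The promoter windows of these genes, 250 bases up to the start site, are printed because the factors of their pathways read motifs there. They are credited to RefSeq on build GRCm38.p6 and are given in the direction of the gene, with capitals for the motif found.
Hspa5: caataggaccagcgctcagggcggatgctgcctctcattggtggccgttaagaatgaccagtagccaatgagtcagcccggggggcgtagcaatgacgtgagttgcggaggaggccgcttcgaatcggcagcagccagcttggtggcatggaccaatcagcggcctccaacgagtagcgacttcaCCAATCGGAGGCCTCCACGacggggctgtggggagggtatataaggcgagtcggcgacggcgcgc
Creld2: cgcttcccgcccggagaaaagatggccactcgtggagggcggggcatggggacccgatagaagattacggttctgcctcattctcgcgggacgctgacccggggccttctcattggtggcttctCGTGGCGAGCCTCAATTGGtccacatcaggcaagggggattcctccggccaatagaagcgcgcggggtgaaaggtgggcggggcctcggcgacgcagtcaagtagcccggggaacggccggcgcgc
Sdf2l1: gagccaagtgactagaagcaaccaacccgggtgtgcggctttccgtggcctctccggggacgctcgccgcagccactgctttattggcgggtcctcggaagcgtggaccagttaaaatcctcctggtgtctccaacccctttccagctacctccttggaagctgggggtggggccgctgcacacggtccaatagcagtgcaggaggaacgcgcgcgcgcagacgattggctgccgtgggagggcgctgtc
Herpud1: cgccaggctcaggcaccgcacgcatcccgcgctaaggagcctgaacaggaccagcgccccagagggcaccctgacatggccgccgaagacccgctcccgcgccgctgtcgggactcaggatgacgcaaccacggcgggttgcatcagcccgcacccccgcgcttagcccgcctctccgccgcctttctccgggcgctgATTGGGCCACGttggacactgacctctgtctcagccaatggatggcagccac
Spp1: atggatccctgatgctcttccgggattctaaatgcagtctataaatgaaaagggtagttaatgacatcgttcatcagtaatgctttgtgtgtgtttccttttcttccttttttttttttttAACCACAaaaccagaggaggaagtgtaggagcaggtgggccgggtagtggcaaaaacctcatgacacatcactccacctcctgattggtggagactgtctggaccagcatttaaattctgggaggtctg
In that order the windows are chr2:34771840-34772089 on the plus strand, chr15:88819396-88819645 on the plus strand, chr16:17132384-17132633 on the minus strand, chr8:94386179-94386428 on the plus strand and chr5:104434861-104435110 on the plus strand, the last being the first of 2 windows listed for Spp1. The capitals in Hspa5 and Creld2 mark the ERSE letters, CCAAT and CCACG with any 9 bases between them, which were searched on both strands. The match in Hspa5 is on the strand of the gene and ends 46 bases before the start site, and that in Creld2 is on the other strand, 107 bases before it. No match to these letters was found in the Sdf2l1 and Herpud1 windows, which says only that these letters are not there. The capitals in Herpud1 mark the related ERSE-II letters, ATTGG and CCACG with any 1 base between them, which were added after the values were seen. They lie on the strand of the gene, 41 bases before the start site. In Spp1 the capitals mark the letters AACCACA, the core that Runx factors bind, 122 bases before the start site. The ERSE letters were found in 37 of 32851 windows of this length (0.113%), the ERSE-II letters in 10 (0.0304%) and the Runx letters in 1444 (4.40%).

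The Untreated library held 5470701 tags over 12575 detected genes and the Day 7 library 5853425 tags over 13300. At this depth a gene at 10 CPM has a 95% Poisson interval of 7.53 to 13.03 CPM in Untreated and 7.60 to 12.9 CPM at Day 7. All 10 fibroblast markers listed were detected in both libraries, but their levels differed. Of the 9 measured, 5 were at least 4-fold higher at Day 7, 2 at least 4-fold lower and 2 within 4-fold, centred as below. Col1a1 went from 310 CPM in Untreated to 7988 at Day 7 and Tcf21 from 1230 to 97.7. Dcn, within 4-fold, was at 9626 CPM in Untreated and 7723 at Day 7. Leukocyte markers were near 0: Ptprc, Cd68, Itgam and C1qa had no tag in either library. The macrophage list without Apoe, which fibroblasts also express, summed to 42.0 CPM in Untreated and 63.7 at Day 7 over 33 genes, of which 16 had no tag in each. Endothelial markers summed to 26.5 and 90.0 CPM. Cdh5, Flt1, Tie1 and Emcn were at 0 in both. Others of that list were higher in CPM at Day 7: Sox18 went from 0.183 to 4.44, Ptprb from 0 to 3.08, Egfl7 from 1.10 to 3.59 and Eng from 5.48 to 9.05. Ramp2 went the other way, from 12.8 to 5.47 CPM. The leukocyte, endothelial, airway and mesothelial genes named in this paragraph were chosen after their values were seen. Airway epithelial markers summed to 187 and 117 CPM. Mesothelial markers summed to 272 and 132 CPM, and Msln and Wt1 were at 0 at Day 7. Large parts of these sums were C3, at 159 and 32.5 CPM, and Igfbp2, at 0.366 and 56.0 CPM. The part of such cells in the results was not tested. Gsn alone gave 17.4% of the Untreated tags, and Mgp and Spp1 gave 12.2% and 7.28% of those at Day 7, where the top 10 genes held 37.2% against 49.4% in Untreated. The median measured gene was 0.39 log2 (1.31-fold) higher in CPM at Day 7, and every difference below is given after subtracting this shift.

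A centred difference is the Day 7 value of log2(CPM + 1) minus the Untreated value minus that shift. A gene was called higher or lower when it reached 2, that is 4-fold, on this scale. Of the 4017 measured genes, 136 were higher (3.39%) and 168 lower (4.18%), and 3713 lay within 4-fold. Without centring, 199 genes were higher (4.95%) and 133 lower (3.31%), so the balance of the directions depends on this step. Centred differences ran from -8.81 to 12.68, with 90% of the genes between -1.80 and 1.61. Of the higher genes 93 were under 10 CPM in Untreated and so counted as measured only through Day 7. Likewise 61 of the lower genes were under 10 CPM at Day 7 and counted as measured only through Untreated. Counts for the lists below are to be read beside the shares of 3.39% and 4.18% over all measured genes. Where most higher members of a list were under 10 CPM in Untreated, nothing is read from their count. The same holds where most lower members were under 10 CPM at Day 7. The folds printed for single genes are CPM ratios divided by 1.31, with exact conditional 95% intervals in parentheses that cover counting error only. The pseudocount of 1 keeps some low genes with a printed fold above 4 inside the limits. A gene with no tag was set to a floor of 3 tags and its fold is a lower bound. In these bulk libraries, fewer cells with a transcript and less of it per cell cannot be told apart.

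**Figure D1:**
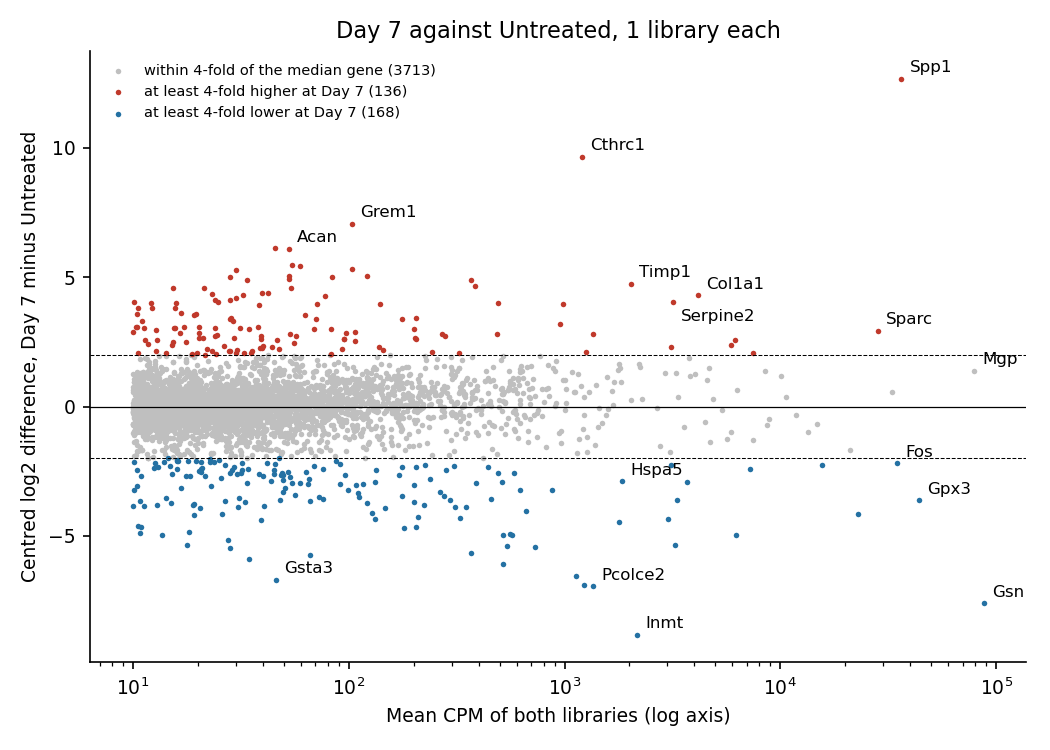
Each point is 1 of 4017 measured genes, placed by its mean CPM in both libraries (log axis) and its centred log2 difference, Day 7 minus Untreated. Dashed lines mark 4-fold; 136 genes lie above and 168 below, from Spp1 at 12.68 to Inmt at -8.81.

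The genes past 4-fold carried much of each library. The 136 higher genes took 1.41% of the tags in Untreated and 20.7% at Day 7. They held 8.07% at Day 2 and 12.0% at Day 4. The 168 lower genes took 47.8% of the Untreated tags and 4.69% at Day 7, a share that Gsn, Gpx3, Sod3 and Fos dominate.

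Matrix genes gave the greatest rises. Spp1, a phosphorylated matrix protein and cytokine, stood at 7.49 CPM in Untreated, 357 at Day 2, 12975 at Day 4 and 72790 at Day 7, a fold of 7436 (5481 to 10363). Cthrc1, a secreted protein that marks fibrotic fibroblasts, went from 1.28 to 2411 CPM, a fold of 1443 (700 to 3589). Postn, the matricellular protein periostin, had no tag in Untreated and 91.4 CPM at Day 7, which is at least 128-fold higher. Both Spp1 and Cthrc1 were highest at Day 7 among the 4 libraries of the time course.

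The list of wound matrix glycoproteins held 33 genes, of which 18 were measured, with a median centred difference of 0.65. Of these 7 were higher, where 3.39% of all measured genes were, and 1 was lower. Of the 7 higher, 5 were under 10 CPM in Untreated and were measured only through their Day 7 level, so nothing is read from the count. Beside the 3 genes above, Tnc, the glycoprotein tenascin C, was 20.6-fold higher (12.3 to 37.1), though at 73.6 CPM it lay under its Day 2 value of 147. Cilp, a matrix protein of cartilage and scar, was 12.4-fold higher (6.57 to 26.3). Sparc, a collagen-binding glycoprotein, went from 5143 to 51380 CPM, 7.65-fold (7.56 to 7.74), and Fn1, fibronectin, from 43.0 to 362 CPM, 6.45-fold (5.63 to 7.41). Tnxb, tenascin X, which spaces collagen fibrils in loose connective tissue, was the lower member, at 130 CPM in Untreated and 2.22 at Day 7, 76.2-fold (44.3 to 144). Igfbp7 and Ecm1 stayed within 4-fold, at centred differences of 1.19 and -1.42.

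All 5 measured fibrillar collagen genes of 11 listed lay above the median gene by at least 2-fold, and 3 passed 4-fold. Col1a1 stood at 310, 776, 3560 and 7988 CPM in Untreated, Day 2, Day 4 and Day 7, a Day 7 fold of 19.7 (18.8 to 20.7). Col3a1 went from 265 to 2457 CPM, 7.09-fold (6.72 to 7.49), and Col1a2, which pairs with the Col1a1 chain, from 52.8 to 488 CPM, 7.08-fold (6.27 to 8.02). Col5a1 and Col5a2, chains of the collagen that starts fibrils, were at centred differences of 1.94 and 1.98, just short of 4-fold. For all 3 called chains the Day 7 value was above those at Day 2 and Day 4. The cells were sorted on a collagen reporter, and the part of the sort in these values was not tested.

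Among 12 measured of 31 other collagen genes in the table, 3 were higher and 1 lower. Of the 3 higher, 2 were under 10 CPM in Untreated. Col8a1, a short-chain collagen of vessels, went from 0.183 CPM, which is 1 tag, to 59.6 CPM, 250-fold (44.5 to 9892). Col7a1, the anchoring fibril chain, went from 1.28 to 48.3 CPM, 28.9-fold (13.9 to 72.6). Col16a1, a fibril-associated chain, was 5.24-fold higher (3.95 to 7.08). Col13a1, a transmembrane collagen of alveolar fibroblasts, went the other way, from 87.6 to 8.54 CPM, 13.4-fold lower (9.99 to 18.3). The widely expressed Col6a1 and Col6a2 lay near the median gene, at 0.56 and 0.83.

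Few of the enzymes that modify and process collagen passed 4-fold: of 26 measured members 3 were higher and 1 lower, with a median of 0.39. All 3 higher members were under 10 CPM in Untreated and were measured only through Day 7. P4ha3, a prolyl hydroxylase subunit, went from 1.10 to 118 CPM, 82.5-fold (37.7 to 226). Bmp1, which removes the C-terminal propeptide of procollagen, was 7.70-fold higher (5.80 to 10.4), and Adamts14, which removes the N-terminal propeptide, 4.78-fold (3.59 to 6.49). Pcolce2, an enhancer of the first of these cuts, was the lower member, from 2688 to 27.7 CPM, 127-fold (109 to 149). Serpinh1, the collagen chaperone HSP47, and Loxl1, a cross-linking oxidase, lay at 0.36 and 0.16.

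A few genes of the ER list were lower at Day 7 while 3 fibrillar collagen chains were higher. Of 47 measured members of the ER folding and secretory list, 1 was higher and 4 lower, against 3.39% and 4.18% among all measured genes. Nothing is read from these small counts. The list median was -0.18, a value that turns positive without centring. Hspa5, the ER chaperone BiP, stood at 3149, 1220, 740 and 559 CPM from Untreated to Day 7, 7.36-fold lower (7.09 to 7.64). Sdf2l1, a partner of BiP, went from 102 to 16.6 CPM, 8.02-fold (6.46 to 10.1). Herpud1, a membrane protein of ER-associated degradation, was 5.98-fold lower (5.58 to 6.40), and Creld2, a disulfide isomerase induced by ER stress, 4.33-fold (3.74 to 5.04). The 4 values of Hspa5 fell at each time, whereas Herpud1 was at 106 CPM at Day 4 and 177 at Day 7.

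Most of the secretory list, 42 of 47 measured members, stayed within 4-fold. Pdia5, a protein disulfide isomerase, was the higher member, from 10.2 to 60.1 CPM, 4.50-fold (3.38 to 6.08). Sec61b, a subunit of the translocation channel, and Rcn3, a calcium-binding ER protein, lay above the median gene at 0.91 and 0.67. The foldases Pdia3 and Pdia6 lay below it at -0.93 and -0.66. Promoter windows were found for 40 measured members of this list, and 6 hold the ERSE letters printed above, against 7 of all 2841 measured genes with a window. These 6 are Hspa5, Creld2, Dnajc3, Canx, Pdia6 and Calr, the last 4 at centred differences of -1.69, -0.72, -0.66 and -0.19. The letters were looked for because of the lower ER genes, of which Hspa5 and Creld2 are among the 6, and their part in the levels was not tested. Dnajc3, Canx and Calr are named for their motif and were chosen after their values were seen.

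**Figure D2:**
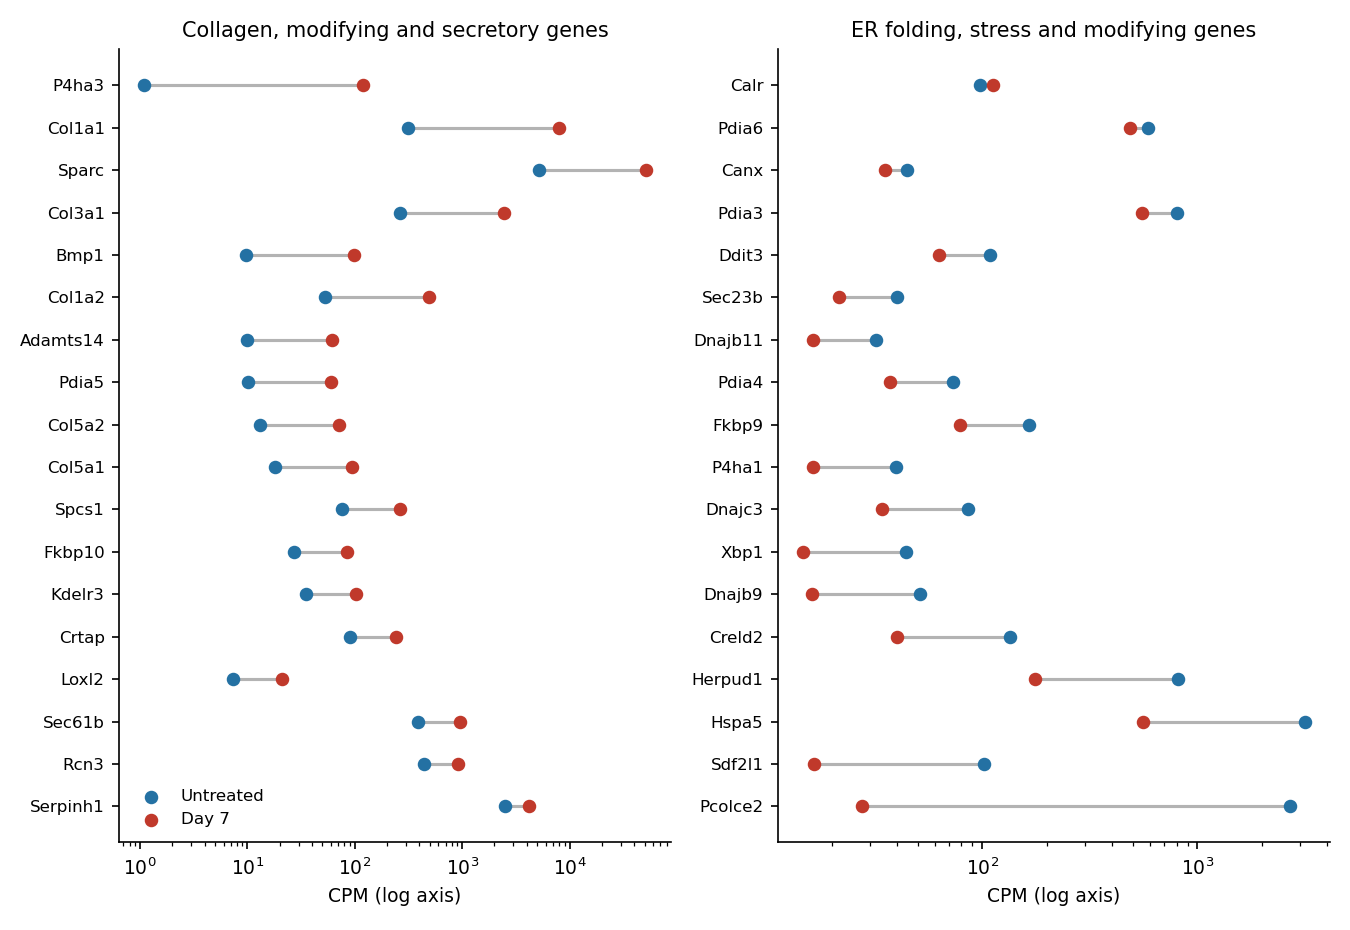
CPM (log axis) of 36 genes in Untreated (blue) and Day 7 (red), in order of their centred difference; genes were placed in the panels after their values were seen, those above the median gene on the left and those below it on the right. Collagen chains such as Col1a1 (310 to 7988 CPM) stand opposite ER genes such as Hspa5 (3149 to 559 CPM).

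Elastic fibre genes went both ways. Of 17 measured members 2 were higher and 4 lower, with a median of 0.66. Ltbp2, a microfibril-binding protein, went from 5.67 to 136 CPM, 18.4-fold (12.9 to 27.3), and Mfap2, a microfibril glycoprotein, from 95.6 to 882 CPM, 7.07-fold (6.46 to 7.75). Eln, tropoelastin itself, was at 251 CPM in Untreated, 139 at Day 2, 475 at Day 4 and 1287 at Day 7, a centred difference of 1.97. The lower members were Efemp1, a fibulin, 26.3-fold (21.8 to 32.0), Fbln1, 12.0-fold (6.58 to 24.0), Ltbp4, which anchors latent TGF-beta to elastic fibres, 6.29-fold (5.60 to 7.09), and Emilin2, 4.74-fold (3.32 to 6.89).

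The small leucine-rich proteoglycans, which bind collagen fibrils and set their width, split as well: of 8 measured members, 2 were higher and 2 lower. Lum stood at 21.8, 28.8, 43.2 and 747 CPM over the time course, 26.3-fold higher at Day 7 (21.9 to 31.8). Fmod was at 23.2, 3.40, 32.6 and 329 CPM, 10.8-fold (9.06 to 13.1). Both were far higher at Day 7 than in any other library. Ogn and Prelp, the lower members, went from 825 to 90.9 CPM and from 470 to 61.5 CPM, 11.8-fold (10.8 to 12.99) and 9.97-fold (8.93 to 11.2). Decorin, Dcn, fell to 1039 CPM at Day 4 and stood at 7723 CPM at Day 7, a centred difference of -0.70 from Untreated.

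Of 14 measured among 45 cartilage, tendon and bone genes in the table, 7 were higher, where 3.39% of all measured genes were, and 2 were lower. All 7 higher members were under 10 CPM in Untreated and were measured only through their Day 7 level, so nothing is read from the count. Acan, the cartilage proteoglycan aggrecan, was at 0.183 CPM in Untreated, 1.46 at Day 2, 16.9 at Day 4 and 105 at Day 7. Scx, the tendon transcription factor scleraxis, went from 0.731 to 45.6 CPM, 47.8-fold (18.4 to 177), and Thbs4, a thrombospondin of tendon, from no tag to 30.8 CPM, at least 42.9-fold. Pth1r, the parathyroid hormone receptor, and Sox9, the chondrocyte regulator, were 13.1-fold (9.44 to 18.7) and 9.85-fold higher (6.80 to 14.8). Prg4, lubricin, was higher than in Untreated at 19.8 CPM but under its Day 2 value of 79.8.

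The lower members of that list were Fgfr3, a growth plate receptor, at 49.2 and 2.73 CPM, and Wisp2, at 158 and 25.3 CPM. Mgp, a vitamin K-dependent inhibitor of calcification, was the most abundant gene at Day 7, at 121737 CPM against 35594, a fold of 2.62 (2.61 to 2.63) that stays within 4-fold. The other abundant listed gene, Clec11a, lay near the median gene at -0.21. Genes of the list that stayed under the mean of 10 CPM number 31 of 45.

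Of 7 measured basement membrane genes 6 were below the median gene and 1, Npnt, passed 4-fold, from 1095 to 45.3 CPM, 31.6-fold lower (27.9 to 35.9). Npnt, nephronectin, is a ligand of integrin alpha 8 in the alveolar wall. Has1, a hyaluronan synthase, went from 187 to 29.0 CPM, 8.41-fold lower (7.14 to 9.95), and Tnfaip6, which links hyaluronan to proteins, from 110 to 19.8 CPM, 7.28-fold (5.96 to 8.95). These are 2 of 5 measured hyaluronan genes, and 2 of the 5, Cd44 and Hyal2, lay above the median gene at 0.92 and 0.82.

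Matrix proteases and their inhibitors went both ways. Of 12 measured metalloproteases and TIMPs, 2 were higher and 1 lower. Timp1, an inhibitor of metalloproteases, was at 111 CPM in Untreated, 8712 at Day 2, 9777 at Day 4 and 3945 at Day 7, 27.2-fold higher (25.1 to 29.5). Mmp14, the membrane-bound collagenase that activates Mmp2, rose at each time to 1874 CPM from 89.9, 15.96-fold (14.6 to 17.5). Mmp3, stromelysin, was 20.0-fold lower (17.5 to 22.9), and Timp2 lay at the median gene (0.04).

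Of 12 measured plasminogen activators, serpins and related proteases, 3 were higher and 1 lower. Serpine2, an inhibitor of thrombin and plasminogen activators, stood at 284, 208, 390 and 6065 CPM over the time course, 16.3-fold higher at Day 7 (15.5 to 17.2). Htra1, a secreted serine protease, and Ctsk, the collagen-cutting cathepsin K, were 7.75-fold (6.34 to 9.56) and 7.20-fold higher (5.52 to 9.56). Serping1, the inhibitor of complement C1, was 5.28-fold lower (5.19 to 5.37).

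Several contractile genes were higher at Day 7 than in Untreated, and some of these had been higher still at Day 4. Of 30 measured members 6 were higher, where 3.39% of all measured genes were, and 1 was lower, with a median of 0.48. Of the 6 higher, 4 were under 10 CPM in Untreated and were measured only through Day 7, so nothing is read from the count. Acta2, alpha smooth muscle actin, was at 8.77 CPM in Untreated, 137 at Day 2, 350 at Day 4 and 132 at Day 7, 11.5-fold (8.57 to 15.7). Tpm2, a tropomyosin, followed the same order at 0.366, 20.7, 91.1 and 20.5 CPM. Myl9, the myosin light chain, and Fhl2, a LIM protein that joins actin signals to transcription, were highest at Day 7 among the 4 libraries of the time course, at 367 and 151 CPM, 6.25-fold (5.47 to 7.16) and 23.4-fold (15.97 to 35.7). Actg2 and Tagln, both smooth muscle cytoskeletal genes, were 88.7-fold (24.3 to 737) and 4.81-fold higher (4.02 to 5.79). Fhl1, a LIM protein related to Fhl2, was the lower member, from 1090 to 150 CPM, 9.49-fold (8.84 to 10.2).

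Markers of smooth muscle and pericytes give the setting of these values. Myh11, the defining smooth muscle myosin, was at 0 CPM in Untreated and 0.513 at Day 7, and the pericyte marker Rgs5 at 0 and 0.171 CPM. Summed over the lists, smooth muscle markers stood at 1376 and 482 CPM, and pericyte markers at 85.4 and 279 CPM. Npnt, the main part of the first sum in Untreated, went from 1095 to 45.3 CPM. Of 6 measured smooth muscle markers 3 were higher and 2 lower, with a median of 2.05. Of the 3 higher, 2 were under 10 CPM in Untreated and were measured only through Day 7. The median turned negative under a higher limit on the mean, so nothing is read from it or from the count. Des, on both lists, went from 12.6 to 64.6 CPM, Cnn1 from 0.183 to 6.83 and the pericyte marker Cspg4 from 0 to 9.91. Cnn1 and Cspg4 were chosen after their values were seen. Pericyte-list genes past 4-fold were Postn and Lmcd1 on the higher side and Fgfr4 on the lower.

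Of 36 measured actin turnover genes 3 were higher and 2 lower. All 3 higher genes were under 10 CPM in Untreated and were measured only through Day 7. Fscn1, fascin, which bundles filaments, Capg, which caps them, and Sept9, a septin, were 6.89-fold (5.03 to 9.67), 4.99-fold (3.47 to 7.37) and 5.52-fold higher (3.15 to 10.4). Gsn, gelsolin, which severs filaments and is also secreted, stood at 173857 CPM in Untreated, 2260 at Day 2, 884 at Day 4 and 1175 at Day 7, 193-fold lower (189 to 198). Sept4, a septin of stellate cells, went from 5693 to 367 CPM, 20.2-fold (19.4 to 21.2).

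In the list of integrins and focal adhesion genes 3 of 21 measured members were higher and 2 lower. Of the 3 higher, 2 were under 10 CPM in Untreated. Itga5, the fibronectin receptor chain, was 5.56-fold higher (3.34 to 9.83) at 22.6 CPM, under its 96.2 CPM at Day 2. Ncam1, a neural cell adhesion molecule, was 8.80-fold higher (4.63 to 18.8), and the tetraspanin Cd63 4.20-fold (4.12 to 4.28). Tns1, tensin, which ties integrins to actin, was 12.5-fold lower (9.97 to 15.9), and the tetraspanin Cd81 5.98-fold (5.62 to 6.37).

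In the activin and BMP list, 3 of 13 measured genes were higher and 1 lower. All 3 higher genes were under 10 CPM in Untreated and were measured only through Day 7, so nothing is read from the count. Grem1, which captures BMPs, was at 0.183, 3.89, 38.2 and 207 CPM over the time course. Inhba, the activin A subunit, and Fst, follistatin, which captures activin, were 53.5-fold (32.8 to 94.0) and 34.0-fold higher (19.7 to 64.3). Both had stood higher at Day 2, at 846 and 219 CPM, than at Day 7, at 204 and 106 CPM. Bmp4, a BMP ligand, was 5.67-fold lower (4.54 to 7.14), and Id3, a target of BMP signals, lay at -0.06.

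None of 14 measured TGF-beta ligands, receptors and feedback genes passed 4-fold in either direction, and their median was 0.10. Tgfb3 and Tgfb2 lay at 1.27 and 1.21, and Nox4, an oxidase induced by TGF-beta, at -1.85. Tgfb2 and Nox4 were named after their values were seen.

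Wnt genes were mostly above the median gene, with 13 of 16 measured, of 62 in the table, on that side and a median of 1.19. Of the 16, 5 were higher, where 3.39% of all measured genes were, and none was lower. Of the 5 higher, 3 were under 10 CPM in Untreated and were measured only through Day 7, so nothing is read from these counts or the median. Sfrp1, a secreted Wnt-binding protein, stood at 43.9, 115, 361 and 939 CPM, 16.4-fold higher at Day 7 (14.4 to 18.7). Its relative Sfrp2 went from 1.46 to 55.0 CPM, 28.8-fold (14.4 to 67.3), and stood at 7.19 CPM at Day 4. The ligand Wnt10a had no tag in Untreated and 20.3 CPM at Day 7, at least 28.4-fold. Nkd2, an intracellular inhibitor of Dishevelled, was 8.59-fold higher (6.62 to 11.3), and Wisp1, a CCN protein induced by Wnt, 10.4-fold (6.46 to 17.9).

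Among 10 measured CCN and YAP target genes 1 was higher, Wisp1 above, and 2 lower, with a median of 0.00. Ctgf lay at 0.76 and Cyr61 at -0.99, both CCN genes that respond to tension. F3, tissue factor, which starts clotting, was 6.56-fold lower (4.94 to 8.84).

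In the IGF list 2 of 9 measured genes were higher and 1 lower, with a median of 1.01. Igfbp2, a binding protein for IGFs, was at 0.366, 0.486, 11.5 and 56.0 CPM over the time course, 117-fold higher at Day 7 (32.2 to 973). Igf1 lay at 1.59 and Igfbp4 at 1.01, while Igfbp6, which prefers IGF2, went from 3384 to 200 CPM, 22.1-fold lower (20.8 to 23.4).

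Of 21 measured PDGF, FGF and other growth factor genes 4 were higher and 4 lower. Of the 4 higher, 3 were under 10 CPM in Untreated. Ptn, the heparin-binding factor pleiotrophin, went from 0.914 to 109 CPM, 91.0-fold (38.8 to 281), and its only relative Mdk, midkine, from 41.3 to 248 CPM, 4.60-fold (3.99 to 5.31). Hbegf, a ligand of the EGF receptor, was 32.4-fold higher (17.5 to 68.1). The lower members were receptors and 1 ligand: Fgfr3, 23.5-fold (14.2 to 41.7), Fgfr4, 19.6-fold (10.6 to 40.0), Pdgfra, 7.39-fold (5.01 to 11.2), and the epithelial mitogen Fgf7, 4.76-fold (3.47 to 6.61). All 4 lower members were under 10 CPM at Day 7 and were measured only through Untreated, so nothing is read from their count. Only 3 hedgehog and Notch genes were measured, none past 4-fold, and Gli1, a hedgehog target, was under the limit on the mean at 7.13 and 12.5 CPM.

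Of 13 measured among 51 neuropeptide and axon guidance genes in the table, 7 were higher, where 3.39% of all measured genes were, and 1 was lower. Of the 7 higher, 5 were under 10 CPM in Untreated and were measured only through their Day 7 level, so nothing is read from the count. Penk, the opioid precursor proenkephalin, was at 26.3, 92.1, 45.9 and 384 CPM, 11.2-fold higher at Day 7 (9.44 to 13.3). Thy1, a membrane protein of neurons and fibroblasts, was 32.8-fold higher (14.9 to 90.1). Cpe, the peptide-processing carboxypeptidase E, was 12.2-fold higher (6.49 to 26.0). Slit3, an axon guidance ligand, was 6.79-fold lower (5.29 to 8.80).

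**Figure D3:**
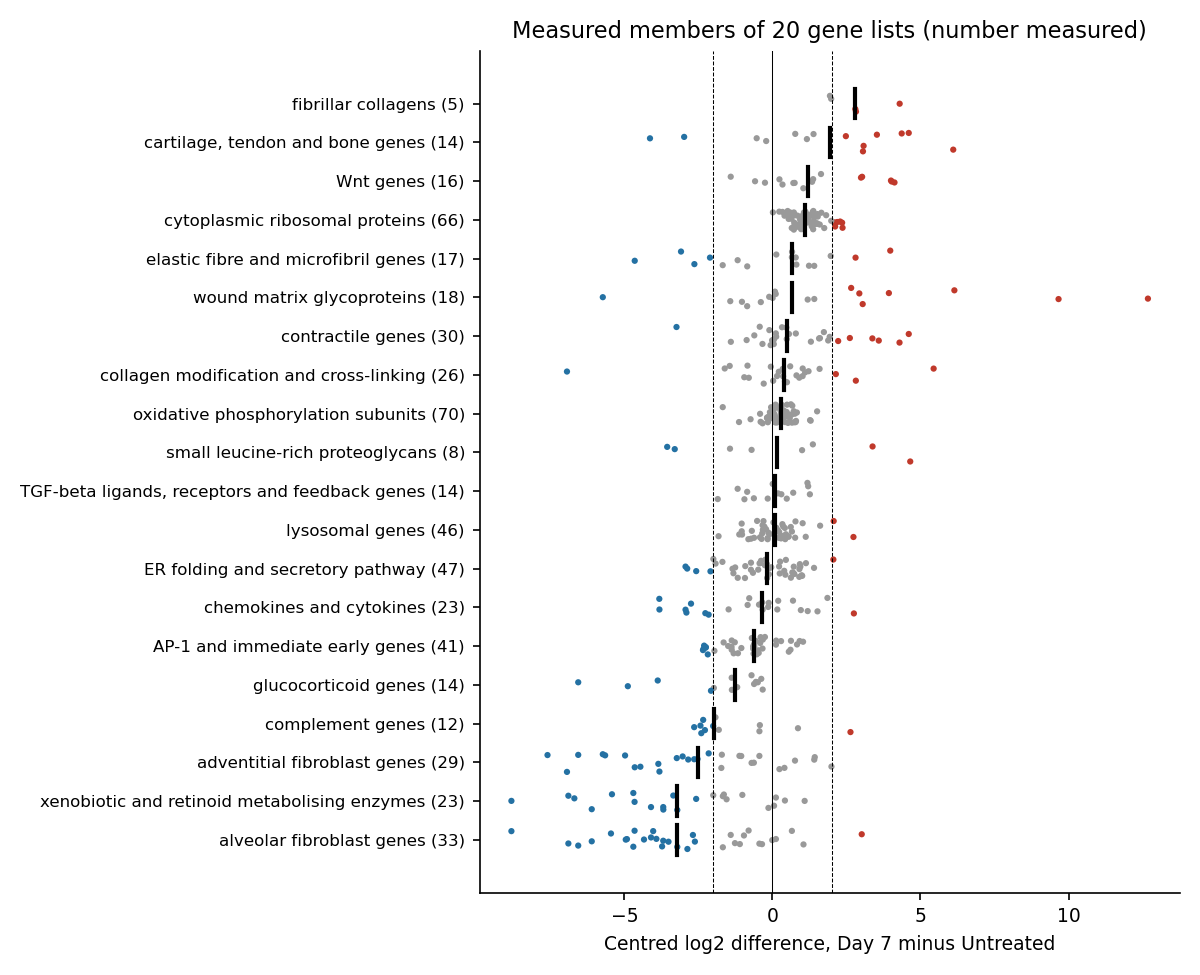
Each point is a measured gene of 1 of 20 lists, placed by its centred log2 difference, Day 7 minus Untreated; black bars are list medians and dashed lines mark 4-fold. Medians run from 2.80 for fibrillar collagens to -3.21 for alveolar fibroblast genes; the lists shown were chosen with their values known.

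Of 23 measured chemokines, cytokines and their receptors, 1 was higher and 7 lower, against 3.39% and 4.18% among all measured genes. The list median was -0.34, which turns positive without centring. Cxcl2, a neutrophil attractant, was at 4.20, 141, 82.1 and 44.8 CPM over the time course, 8.15-fold higher at Day 7 (5.32 to 13.1). Its neighbour in kind, Cxcl1, had 2747 CPM at Day 2 and 424 at Day 7, a centred difference of -0.13 from Untreated. The lower members held 2 chains that receive cytokines of the interleukin-6 family, Il6ra, 19.5-fold (11.3 to 36.3), and Il11ra1, 4.84-fold (4.41 to 5.33), and their feedback inhibitor Socs3, 7.70-fold (7.08 to 8.38). Cxcl14, a chemokine of resting fibroblasts and epithelium, went from 873 to 152 CPM, 7.52-fold (7.00 to 8.09). The scavenging receptor Cxcr7, the B cell factor Tnfsf13b and the eosinophil attractant Ccl11 were the others. Of the lower members, Il6ra, Cxcr7 and Tnfsf13b were under 10 CPM at Day 7 and were measured only through Untreated.

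Of 15 measured NF-kB feedback and acute-phase genes, 2 were higher and none lower, 9 lay below the median gene, and the median was -0.14. The higher members were Saa3, serum amyloid A3, at 20.3, 305, 57.6 and 171 CPM, and Hp, haptoglobin, at 36.0, 54.4, 75.1 and 240 CPM. Their Day 7 folds were 6.44 (5.29 to 7.91) and 5.11 (4.40 to 5.96). The manganese dismutase Sod2, a target of NF-kB, had 842 CPM at Day 2 and lay at -0.78 at Day 7.

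Complement genes were low: 6 of 12 measured were lower and 1 higher, with a median of -1.96, against 4.18% lower among all measured genes. C3, the central component, went from 159 to 32.5 CPM, 6.39-fold (5.46 to 7.52). C4b, of the classical pathway, was 5.84-fold lower (3.84 to 9.16), and C1s, a protease of that pathway, 4.97-fold (4.19 to 5.94). Of the lower members, C4b and C2 were under 10 CPM at Day 7 and were measured only through Untreated. C1s stood at 5.85 CPM at Day 4 and at 28.7 CPM at Day 7, between Day 4 and Untreated. C1qtnf6, a secreted relative of C1q outside the cascade, was the higher member, at 53.1 CPM against 5.67.

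Of 22 measured interferon response and antigen presentation genes 3 were lower and none higher, with a median of -0.74. Among all measured genes 4.18% were lower. The 3 lower members were Ly6c1, 18.3-fold (10.8 to 33.3), Ly6a, 9.72-fold (8.12 to 11.7), and the transcription factor Irf8, 5.17-fold (3.43 to 8.02). Ly6c1 and Irf8 were under 10 CPM at Day 7 and were measured only through Untreated, so nothing is read from the count. Ly6a and Ly6c1 belong to a family of close copies, and how tags shared between copies were assigned is not given. B2m, the light chain of class I molecules, lay at -0.15.

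Immediate early genes, which answer growth factors, stress and cell handling within minutes, mostly stayed within 4-fold. Of 41 measured members 6 were lower, where 4.18% of all measured genes were, none was higher and 35 lay within 4-fold. Below the median gene lay 32 of the 41 and above it 9, with a median of -0.62. Fos stood at 53786 CPM in Untreated, 2712 at Day 2, 2277 at Day 4 and 15482 at Day 7, 4.54-fold lower (4.50 to 4.57). Zfp36, which destabilises cytokine mRNA, and Egr1 were 4.75-fold (4.69 to 4.80) and 4.77-fold lower (4.65 to 4.90), and Atf3 5.06-fold (4.54 to 5.64). Jun and Junb were within 4-fold at -1.27 and -1.31. All of Fos, Zfp36, Egr1, Jun and Junb were higher at Day 7 than at Day 2 or Day 4. Hspa1a, at -0.46, shares nearly all of its sequence with Hspa1b, so its tags cannot be assigned with certainty.

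Genes of resting alveolar fibroblasts, the cells of the gas-exchanging wall, had the lowest list median, shared with the metabolising enzymes described further on. Of 33 measured members 20 were lower and 1 higher, against 4.18% and 3.39% among all measured genes, and the median was -3.21. Inmt, a methyltransferase, went from 4343 to 11.6 CPM, 488-fold (385 to 629). Fmo2, a flavin monooxygenase, and Mettl7a1 were 123-fold (105 to 145) and 72.3-fold lower (59.7 to 88.2). Tcf21, the transcription factor of this lineage, stood at 1230, 49.7, 21.1 and 97.7 CPM, 16.4-fold lower at Day 7 (15.1 to 17.9). G0s2, an inhibitor of fat breakdown, and Slc7a10, an amino acid transporter, were 30.7-fold (27.2 to 34.9) and 106-fold lower (40.9 to 391).

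Some members of that list were not lower. Lpl, lipoprotein lipase, was the higher member, from 34.0 to 369 CPM, 8.31-fold (7.15 to 9.70). Mfap4, a microfibril protein, was at 4106, 148, 422 and 8462 CPM over the time course, so that its Day 7 value lay 0.66 above Untreated after having been far below it. Cdh11, a mesenchymal cadherin, lay at 1.05.

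Adventitial fibroblast genes, of the cuffs around vessels and airways, were low too, with a median of -2.53. Of 29 measured 16 were lower, against 4.18% of all measured genes, and none was higher. Beside Gsn, Pcolce2, Tnxb, Efemp1 and Igfbp6 above, Clec3b, tetranectin, was 52.9-fold lower (43.5 to 64.9) and Pi16, a marker of this population, 32.2-fold (28.3 to 36.8). Dpt, dermatopontin, was at 440, 57.8, 42.0 and 175 CPM and stayed within 4-fold at -1.71. Of the 20 lowest genes by the naming rule, 4 stand in no list: Crispld2, 41.3-fold (38.9 to 43.8), Dpep1, a dipeptidase, 43.7-fold (37.7 to 50.9), the lipid phosphatase Ppap2b, 31.5-fold (30.4 to 32.7), and Ms4a4d, 21.6-fold (17.4 to 27.1).

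**Figure D4:**
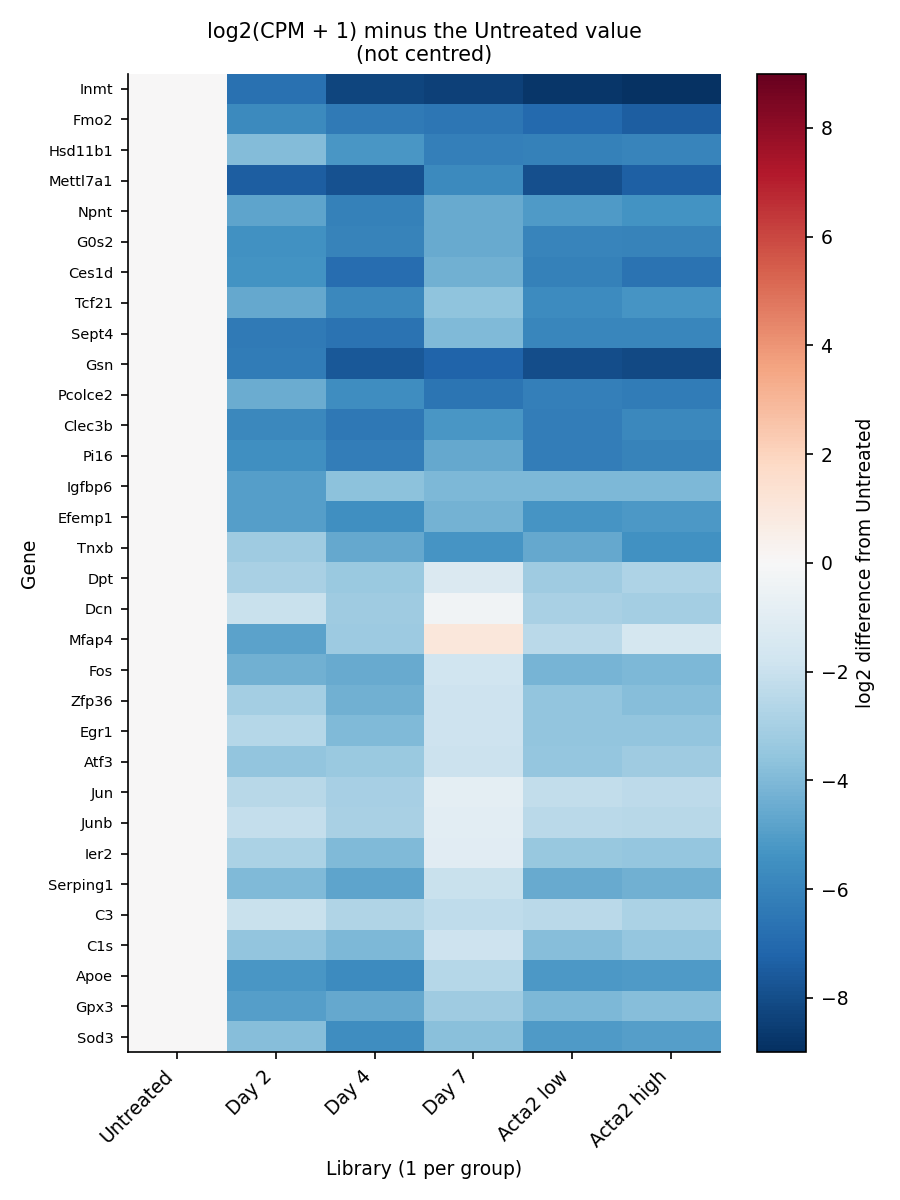
Colour gives log2(CPM + 1) minus the Untreated value (not centred) for 32 genes chosen with their values known, in 6 libraries. Inmt and Gsn are dark blue in all 5 transferred libraries, while Dcn, Mfap4, Fos and Junb are paler, or red, at Day 7 than in the other transferred libraries.

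Enzymes of drug and retinoid metabolism shared the low end, with a median of -3.21. Of 23 measured members 13 were lower, against 4.18% of all measured genes, and none was higher. Several of them also stand in the alveolar list. Gsta3, a glutathione transferase, had 91.4 CPM in Untreated and 0.171 at Day 7, a fold of 699 with a wide interval (125 to 27653) since Day 7 held 1 tag. Gstm1, of the same superfamily but with close copies, went from 1418 to 42.4 CPM, 43.7-fold (38.5 to 49.8). Selenbp1, a sulfur-metabolising enzyme, was 18.1-fold lower (14.7 to 22.3), and Aldh1a1, which makes retinoic acid, went from 21.6 to 0.171 CPM.

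Glucocorticoid genes were all 14 below the median gene, with 4 of them lower, against 4.18% of all measured genes. Hsd11b1, which regenerates active glucocorticoid in the cell, stood at 2226, 145, 58.0 and 29.9 CPM, 97.2-fold lower at Day 7 (83.8 to 113.5). Tsc22d3, the glucocorticoid-induced leucine zipper, was 14.9-fold lower (13.2 to 16.9), and Zbtb16, another target, went from 21.6 CPM to no tag, at least 55.0-fold. Cdkn1c, a cell cycle inhibitor on this list, was 4.47-fold lower (3.37 to 5.98), and Dusp1 lay at -0.62.

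Lipid genes went both ways, with 3 of 15 measured higher and 3 lower. Pltp, the phospholipid transfer protein, was at 13.5, 3.24, 8.77 and 152 CPM, 8.63-fold higher at Day 7 (6.80 to 11.1), beside Lpl above. Lgals1, galectin 1, was 5.97-fold higher (5.83 to 6.11). Apoe went from 6331 to 1085 CPM, 7.62-fold lower (7.42 to 7.83), and Apod was 13.6-fold lower (9.42 to 20.2). None of 13 cholesterol and fatty acid synthesis genes passed 4-fold.

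Of 27 measured metallothionein and oxidative stress genes 1 was higher and 4 lower, where 4.18% of all measured genes were lower. In this list 13 lay above the median gene and 14 below it, with a median of -0.29. Gpx3, the extracellular glutathione peroxidase, went from 79090 to 8444 CPM, 12.2-fold lower (12.1 to 12.3), and Sod3, the extracellular superoxide dismutase, from 42518 to 3089 CPM, 18.0-fold (17.7 to 18.3). Sepp1, a secreted selenium carrier, was 14.2-fold lower (12.4 to 16.4), and Txnip, which binds thioredoxin, 6.59-fold (5.28 to 8.31). Mt2, a metallothionein, had 631 CPM in Untreated, 8447 at Day 2, 4063 at Day 4 and 209 at Day 7, a centred difference of -1.98.

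Growth machinery lay above or near the median gene. All 66 measured cytoplasmic ribosomal protein genes were above it, 37 by at least 2-fold and 6 past 4-fold, with a median of 1.08. Their sum went from 23115 CPM in Untreated to 153720 at Day 2, 117340 at Day 4 and 76405 at Day 7. Rpl37a was 5.17-fold higher (5.05 to 5.29) and Rpl41 4.88-fold (4.74 to 5.04). These genes have many processed pseudogenes, so tags of single members are uncertain. Against this, 46 mitochondrial ribosomal genes, 38 translation and nucleolar genes, 37 proteasome genes and 70 oxidative phosphorylation genes had no member past 4-fold in either direction, and medians of 0.20, 0.01, 0.25 and 0.31.

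Of 20 measured amino acid genes the only ones past 4-fold were the glutamine genes Slc1a5, a transporter, and Glul, the synthetase, 7.05-fold (6.35 to 7.83) and 8.24-fold lower (6.55 to 10.5). Of 17 measured glycolysis and hypoxia-linked genes only Adm, a vasodilator peptide, passed it, 4.78-fold lower (3.87 to 5.93). Lysosomal genes centred on 0.08 over 46 members, of which Ctsk and Cd63 passed 4-fold. S100a4, a calcium-binding protein of motile fibroblasts, was at 17.4, 177, 1576 and 717 CPM, 31.6-fold higher at Day 7 (25.8 to 39.1), in a list of 15 S100 and annexin genes with a median of -0.06.

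Proliferation genes were barely measured. Only 4 of 37 DNA replication genes and 5 of 49 mitosis genes in the table reached a mean of 10 CPM, and 1 passed 4-fold, Dut, which cleans the nucleotide pool, at 9.32, 160, 164 and 55.9 CPM. Mki67 had no tag in Untreated and 0.342 CPM at Day 7, both at or under the floor of 3 tags. Stmn1, a microtubule regulator of dividing cells, lay at 1.53. The summed replication list stood at 88.3, 906, 578 and 244 CPM over the time course.

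Inhibitors of the INK4 locus were detected at Day 7. Cdkn2b, p15, was at 0.548, 0.648, 9.67 and 31.1 CPM, 43.4-fold higher at Day 7 (14.6 to 212). Cdkn2a, which encodes p16 and p19, was at 0.183, 0.810, 4.05 and 20.8 CPM, 87.3-fold (15.4 to 3476). Both were highest at Day 7 among the 6 libraries and were the 2 higher genes of 21 measured inhibitors and p53 genes. Both were under 10 CPM in Untreated and were measured only through Day 7. Cdkn1a, p21, a target of p53, had 1846 CPM at Day 2 and lay at -0.29 at Day 7.

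Transcription factors of mesenchyme numbered 30 measured among 76, with 5 higher and 2 lower. Of the 5 higher, 4 were under 10 CPM in Untreated and were measured only through Day 7, so nothing is read from the count. Twist1, of limb and cranial mesenchyme, was 8.29-fold higher (4.60 to 16.4), Runx1, which also appears in the skeletal list, 6.97-fold (4.34 to 11.8), Sox4 6.02-fold (5.02 to 7.26) and the homeobox gene Prrx2 5.23-fold (3.93 to 7.09). Osr1, of embryonic lung mesenchyme, was lower beside Tcf21, 9.34-fold (7.29 to 12.1). The Runx letters of the Spp1 window were found in 4 of 90 windows of higher genes (4.44%), 4 of 117 of lower genes (3.42%) and 4.01% of the windows of 2841 measured genes.

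Sdc1 and Bpgm are among the 20 rises taken by the naming rule and stand in no list. Sdc1, a heparan sulfate proteoglycan of the cell surface, went from 1.46 to 104 CPM, 54.5-fold (27.5 to 127), and Bpgm, the bisphosphoglycerate mutase, from 2.92 to 164 CPM, 42.8-fold (26.2 to 75.3). Plvap and Ecscr, both known from endothelium, were 22.5-fold (10.2 to 62.2) and 9.85-fold higher (5.62 to 18.9). They are the only 2 measured genes of the 25 in the endothelial list. Among the others, Cdh5, Tie1 and Emcn had no tag at Day 7, while Sox18 and Ptprb were at 4.44 and 3.08 CPM. The part of endothelial cells in these values was not tested.

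The place of Day 7 in the time course was described for the called genes. Of the 136 higher genes, 90 (66.2%) had their highest value of the 4 libraries at Day 7, 26 at Day 4 and 20 at Day 2. Of the 168 lower genes, 57 had their lowest value at Day 7, 81 (48.2%) at Day 4 and 30 at Day 2. In CPM as deposited, 58 of the higher genes were at least 2-fold above Day 4 and 13 at least 2-fold below it. Of the lower genes, 50 were at least 2-fold above Day 4 and 21 below. The genes were called by their Day 7 values, which favours high Day 7 values among the higher genes and low ones among the lower. No share over all measured genes is set beside these counts of single libraries, so nothing is read from them.

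In 17 measured genes the Day 7 value was at least 4 times that of each other library, the Acta2 sorts included. Lum led with 11.2 times the next highest library, followed by Serpine2, Sfrp2 and Pltp with 7.82, 7.65 and 7.63 times. The others included Nrtn, a ligand of the GDNF family, Nkd2, Ptn, Mdk, Lpl, Fmod, Thbs4, 1500015O10Rik, Itm2a, Rgs2, Tmem86a and Penk. Nrtn stood at 2.92 CPM in Untreated, at most 8.79 in the other libraries and 54.0 at Day 7. Nrtn, 1500015O10Rik, Itm2a, Rgs2 and Tmem86a were chosen after their values were seen, and 3 of the 17 were within 4-fold of Untreated.

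**Figure D5:**
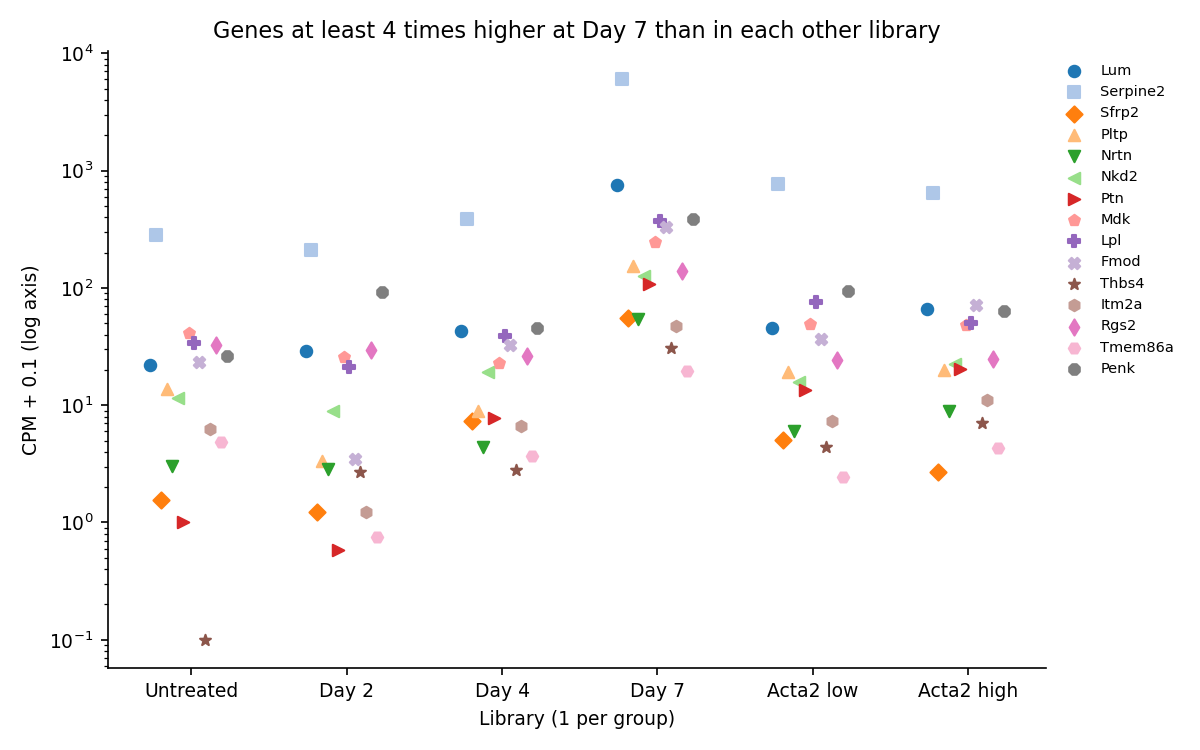
CPM plus 0.1 (log axis) in 6 libraries for 15 of the 17 genes whose Day 7 value is at least 4 times each other library. Serpine2 stands at 6065 CPM at Day 7 and at no more than 775 elsewhere, and Lum at 747 against no more than 66.5.

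On the other side, 6 genes were at least 2 times higher in each other library than at Day 7. Gsta3 and Has1 are described above. Cav1, the coat protein of caveolae, was at 83.0, 212, 251 and 31.6 CPM over the time course, with 157 in Acta2 low and 102 in Acta2 high. Mt2, Elmo1 and S1pr3 completed the set, the last pair chosen after their values were seen.

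The Day 7 values of the called genes were set beside those of the Acta2 sorts. Of the 136 higher genes, 54 were at least 2-fold above Acta2 low at Day 7 and 39 above Acta2 high, with 14 and 13 at least 2-fold below. Of the 168 lower genes, 53 and 45 were at least 2-fold above Acta2 low and Acta2 high, and 10 and 5 below. Here too the genes were called by their Day 7 values, and nothing is read from the counts. Col1a1 stood at 4293 CPM in Acta2 low, 7953 in Acta2 high and 7988 at Day 7, and Acta2 itself at 277, 451 and 132 CPM. The day on which the Acta2 libraries were taken is not given in the sources used here, so these values stand side by side and no time is read from them.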

How the data were processed

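The Untreated and Day 7 libraries of transferred mouse lung fibroblasts were compared, 1 library each. Per the labels' protocols, amplified cDNA was read by 3' SAGE, which counts short tags near the 3' end of transcripts. BWA 0.6.2 and mm9 are named in the submitters' processing notes. No source used here gives the tagging enzyme, how tags were assigned to genes, or whether strand was kept. The authors deposited CPM values for 24408 gene symbols in 6 libraries, per the file headers. 100% of the values were whole multiples of the value of 1 tag within 0.001, and tag counts were recovered from them. The libraries held 4448065 to 6175334 tags. Tags carry no molecular identifiers, so every interval and floor covers counting error only.

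Here log2(CPM + 1) of Untreated was subtracted from that of Day 7 for genes with a mean of at least 10 CPM, and the median gene was subtracted. A gene was called past 4-fold, with no test, since there is 1 library a group. Count ratios carry exact conditional (Clopper-Pearson) 95% intervals. In 25 rows a symbol turned into a date was restored from the transcript title. The 61 gene lists and the comparison itself were chosen with earlier results of these data known. Named genes were the 20 largest differences each way with a mean of at least 50 CPM, leaving out clone, locus, DNA-segment and predicted-gene symbols, up to 8 genes past 4-fold each way and up to 4 others in each list, and 8 anchor genes. The values of some genes so named are not reported here. Alternatives were other pseudocounts, filters, scalings and fold limits, and a binomial test of tags added to the fold limit. Promoters came from a RefSeq table on GRCm38.p6, which differs from mm9. Work was done in Python 3.11.15 with numpy 2.4.6, pandas 2.3.3, scipy 1.17.1 and matplotlib 3.10.9.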

Additional observations from a re-analysis of the deposited data

How the results depend on the processing

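Against 136 higher and 168 lower genes, leaving out the filter on low values gave 298 and 238 of 14105 genes, a mean of at least 50 CPM 51 and 92 of 1273, CPM without the 100 most abundant genes 265 and 254 of 7070, and a 2-fold limit 465 and 455. Pseudocounts of 5 and 0.1 CPM gave 98 and 139, and 148 and 180, and median-ratio scaling gave 155 and 158. Without centring there were 199 and 133. Adding a binomial test of tags, which compares the libraries and not the conditions, removed none of the 304 calls. With the tag numbers of measured genes a 4-fold difference passes such a test almost by necessity, so nothing is read from this. List medians past 2-fold numbered 18 of 56, and 9 with no filter. Of 370 measured named genes, 175 were past 4-fold, and 107 with a mean of at least 50 CPM, where fewer genes are measured. No named gene past 4-fold reversed under these alternatives. The median of the smooth muscle markers, 2.05, was -0.91 with a mean of at least 50 CPM, which leaves fewer members. No paired analysis was possible because each group has 1 library, and no library could be left out for the same reason. Counting alone leaves a gene at 10 CPM within 7.53 to 13.03 CPM in Untreated, and the spread between animals is unknown.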
